A study of Homo sapiens with 4 samples.

Results

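The region of 11q13 around CCND1 is a stretch of the long arm of chromosome 11, taken here from 68500001 to 70800000 (hg19). Its members were all windows of the deposited 5hmC-Seq table that lie wholly between these coordinates. Within the table the choice used position alone, but the table itself holds only windows that the authors' listing kept. They numbered 4322 of the 956365 windows in the table, or 0.452%. Each window is 500 bp long, so that the 2300000 bp of the region hold 4600 windows and the table leaves out only a small number of them.

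The table came from FaDu cells (FADU in the labels), an established epithelial line derived from a hypopharyngeal squamous carcinoma. There were 4 libraries of genomic DNA, 1 for each condition and none with a replicate. Cells with a scrambled control or with TET1 knockdown were each kept in normoxia or at 1% O2, for 18 h in the hypoxia library of the scrambled control and for 19 h in that of the knockdown. The labels title the libraries hMeDIP-seq but describe immunoprecipitation with a 5-methylcytidine antibody, whereas the methods describe chemical labelling of 5-hydroxymethylcytosine (5hmC), so that the mark behind the windows is not certain. The 4 columns of values carry names that match no library, so that their values, and with them the comparisons of hypoxia with normoxia and of knockdown with control, are not analysed here. The results below describe which windows are in the table, and the depth behind each window was not examined.

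5hmC is made from 5-methylcytosine by the TET dioxygenases, TET1 among them, and lies mostly at CpG dinucleotides. CpG-dense start sites of genes are in general poor in methylation, and gene bodies richer. 11q13 is among the regions that are most often present in extra copies in squamous carcinomas of the head and neck. CCND1 encodes cyclin D1, which drives the passage from G1 to S phase with CDK4 and CDK6. FADD is the adaptor that links death receptors to caspases, ANO1 is a calcium-activated chloride channel, and CTTN encodes cortactin, which binds branched actin at the cell edge. FGF3, FGF4 and FGF19 are fibroblast growth factors, and PPFIA1 encodes liprin-alpha-1, a scaffold protein at the cell edge. More copies of the DNA and more of the mark on each copy both add fragments to a window, and in a table of positions the effects of both cannot be told apart. Copy number was not measured here.

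The windows that carry the result best are those with no CpG at all, because such windows were seldom listed elsewhere in the genome. The listed window with the lowest GC content among those in uniquely placed sequence between 69274001 and 70861000 lies between FGF3 and ANO1 at chr11:69668001-69668500 and overlaps no annotated gene. It has 24.6% GC, and of all autosomal windows like it 0.321% were listed. A window with no CpG that is not listed lies centromeric of CCND1 at chr11:68754001-68754500, also outside annotated genes, with 32.6% GC and a predicted share of 1.41%. The middle 300 bases of both are shown on the plus strand of GRCh37, and the absence of capitals, which would mark a CpG, is what they have in common.
listed window, chr11:69668101-69668400: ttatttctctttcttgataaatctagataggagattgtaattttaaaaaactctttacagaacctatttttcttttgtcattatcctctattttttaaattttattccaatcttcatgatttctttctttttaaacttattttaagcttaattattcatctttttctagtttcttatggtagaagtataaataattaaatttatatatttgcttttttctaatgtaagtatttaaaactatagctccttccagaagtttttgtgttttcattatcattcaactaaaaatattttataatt
window not listed, chr11:68754101-68754400: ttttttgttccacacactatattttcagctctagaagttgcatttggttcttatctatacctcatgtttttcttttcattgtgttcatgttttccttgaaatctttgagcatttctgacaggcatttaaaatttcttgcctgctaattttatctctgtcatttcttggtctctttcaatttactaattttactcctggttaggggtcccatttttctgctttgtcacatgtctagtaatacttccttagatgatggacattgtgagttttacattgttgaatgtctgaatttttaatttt
These are examples and not a matched pair. Another unlisted window with no CpG, which starts at 69165001, had 18.8% GC and a predicted share of 0.126%, lower than that of the listed window.

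Promoters are often dense in CpG sites. Of the 18 protein-coding genes with a canonical start in the region, 8 matched an entry of the RefSeq promoter table (GRCh38.p14). They had between 4 CpG sites (MRGPRD) and 33 (PPFIA1) in the 250 bases before the start used there, which is not always the canonical start. Those of FADD and PPFIA1 are shown because they were the densest, and that of FGF3 as a growth factor gene of intermediate density. Each is written 5′ to 3′ on the strand of the gene, with every CpG in capitals. By exact match they lie in GRCh37 at chr11:69634185-69634434 (minus strand), chr11:70049152-70049401 and chr11:70116546-70116795 (both plus strand).
FGF3: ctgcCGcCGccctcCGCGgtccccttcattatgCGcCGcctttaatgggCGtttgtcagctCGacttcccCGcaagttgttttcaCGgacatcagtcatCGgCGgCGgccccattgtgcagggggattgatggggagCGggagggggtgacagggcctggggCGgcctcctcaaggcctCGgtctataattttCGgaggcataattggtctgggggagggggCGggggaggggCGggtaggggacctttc
FADD: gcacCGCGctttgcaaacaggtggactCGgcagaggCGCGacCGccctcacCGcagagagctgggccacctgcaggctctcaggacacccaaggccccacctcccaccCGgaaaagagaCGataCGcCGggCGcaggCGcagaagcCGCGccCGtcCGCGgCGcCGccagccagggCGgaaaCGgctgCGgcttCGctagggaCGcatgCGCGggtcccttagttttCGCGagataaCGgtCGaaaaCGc
PPFIA1: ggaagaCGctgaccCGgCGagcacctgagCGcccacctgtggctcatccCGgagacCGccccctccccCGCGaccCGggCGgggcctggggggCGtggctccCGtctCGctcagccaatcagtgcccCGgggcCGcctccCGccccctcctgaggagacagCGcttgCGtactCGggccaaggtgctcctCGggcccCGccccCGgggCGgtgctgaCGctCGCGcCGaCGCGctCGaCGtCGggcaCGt
These stretches hold 19, 32 and 33 CpG sites, where the median of the 35116 promoters in the RefSeq table is 11. As many CpG sites as in the stretch of PPFIA1 were present in 8.15% of promoters, as many as in that of FADD in 9.52% and as many as in that of FGF3 in 34.6%. CPT1A (7) and MRGPRD (4) lay below the median. The stretch of CPT1A, at 68611746 to 68611995, is not next to its canonical start at 68609384, whose window has 71 CpG sites. That of ANO1, at 69831763 to 69832012, is likewise away from its canonical start at 69924423. Each stretch shown lies in 1 window, and all of these windows were listed. The core of the hypoxia response element, searched as ACGTG and GCGTG on both strands, had 2 matches in the stretch of PPFIA1 and 0 in those of FGF3 and FADD. Of all promoters in that table, 43.2% held at least 1 match, and a match is only a description of the letters.

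Of the 4600 windows of the region, 202 contain a base that is not determined in the genome. They fall into 2 assembly gaps, at 69089501 to 69140000 and at 69724501 to 69775000, with 101 windows each and 2 of each listed. In the 4398 other windows 4318 were listed, or 98.2% (95% Wilson interval 97.7 to 98.5%, which covers counting error only and treats neighbouring windows as independent). Over all 22 autosomes 17.6% of the windows without an undetermined base were listed, 943994 of 5368882. The region therefore came close to being complete in a table that leaves out most of the genome.

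The region is rich in CpG and in GC, with a mean of 9.65 CpG sites per window against 4.97 over the autosomes and 51.1% GC against 41%. For this reason each window was given a predicted share, the share listed among autosomal windows that match it in CpG number and, closely, in GC content. The prediction for the region was 39.9%, so that the listed share stood at 2.46 times the predicted one (2.45 to 2.47). Composition thus predicted more listed windows here than on average, but fewer than were listed. Chromosome 11 outside the region had 16.3% of its windows listed, against 17.7% predicted, a ratio of 0.924. The ratio of the region was 2.67 times that of the rest of its chromosome.

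**Figure D1:**
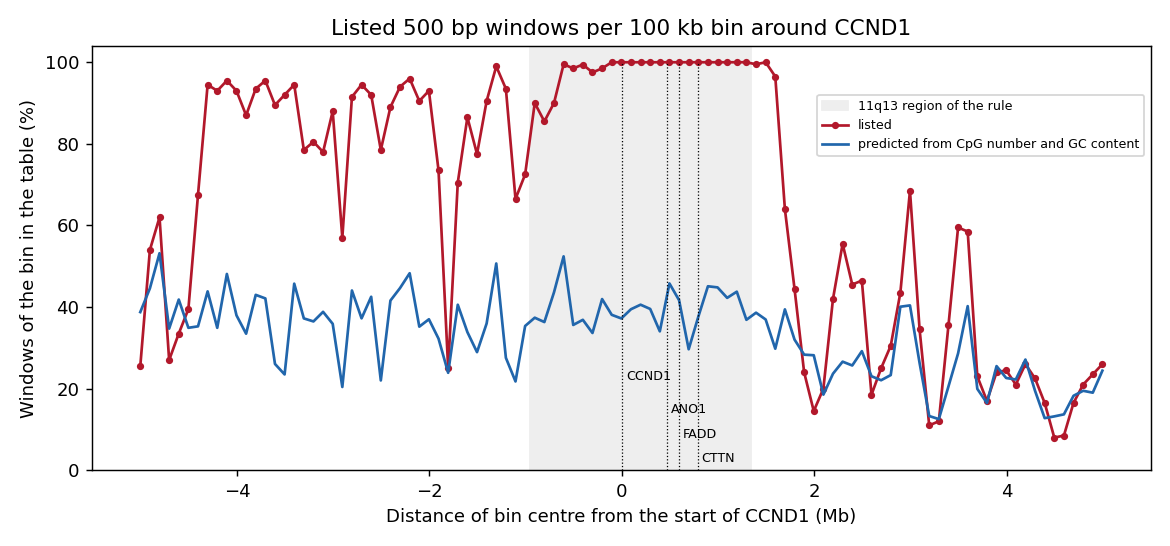
Share of 500 bp windows in the table (red) and share predicted from CpG number and GC content (blue) in 100 kb bins, against the distance of the bin centre from the start of CCND1 in Mb, with the centromere to the left. The grey band is the 11q13 region, in which the listed share lies between 85.5% and 100% and the dotted lines mark the starts of CCND1, ANO1, FADD and CTTN.

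From the start of CCND1 to the end of CTTN all 1552 windows were listed (95% interval from 99.8%), where 38.9% were predicted, a ratio of 2.57. From CTTN to the telomeric end of the region all 1035 windows were listed as well. Centromeric of CCND1 the share was 95.6%, with 1731 of 1811 windows. All 80 unlisted windows of the region therefore lie on the centromeric side of CCND1. The plot of listed share along the chromosome shows this as a plateau at 100% that begins before CCND1 and continues past CTTN.

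The plateau can be given exact ends. Leaving out undetermined windows, no window was missing from 69274001 to 70861000, a run of 3073 windows over 1587000 bp. It began 181923 bp before the start of CCND1 and ended 578319 bp beyond the end of CTTN, inside SHANK2, a scaffold protein of synapses. Of its windows 2951 lie in the region. The ends of the run were taken from the listing itself, so that its full listing follows from its definition. The 1226 listed windows that composition predicted for it therefore only describe its composition. Its windows ranged from 24.6% to 80.0% GC and from 0 to 81 CpG sites, and 34 of them had no CpG at all.

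The second assembly gap lies inside this run, with 901 windows before it and 2172 after it. Among the 366294 unbroken stretches of listed windows on the autosomes this was the longest. The median stretch had 2 windows and the 99th percentile was 16. The next longest, with 464 windows from 70861501 to 71093500, lies directly beside it, separated by the unlisted window that starts at 70861001. The longest stretch elsewhere had 280 windows and lies on chromosome 14. In the 500 windows next to the plateau 96% were listed on the telomeric side and 98.4% on the centromeric side. Over 1000 windows the shares were 72.9% and 97.2%.

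In bins of 100 kb, 22 of the 23 bins of the region had a listed share of at least 2 times the predicted one, where 6.93% of the 26956 autosomal bins did. The median ratio was 2.46 (from 1.90 to 3.37), against 0.705 over the autosomes. High ratios were not particular to the region. In the centromeric flank of 2.3 Mb 19 of 23 bins reached 2, with ratios up to 3.57, and in the telomeric flank 5 of 23. From 65100001 to 68500000 it was 29 of 34 bins, with a highest ratio of 3.92. None of these 34 bins was full. The bin below 2 runs from 68800001 to 68900000 and had 99.5% of its windows listed, but it also had the highest predicted share of the region, 52.4%. The highest ratio, 3.37, belonged to the bin from 70100001 to 70200000, which holds most of PPFIA1 and had the lowest predicted share, 29.7%. The ratios within the region thus followed the predicted share, because the listed share had almost no room to vary.

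**Figure D2:**
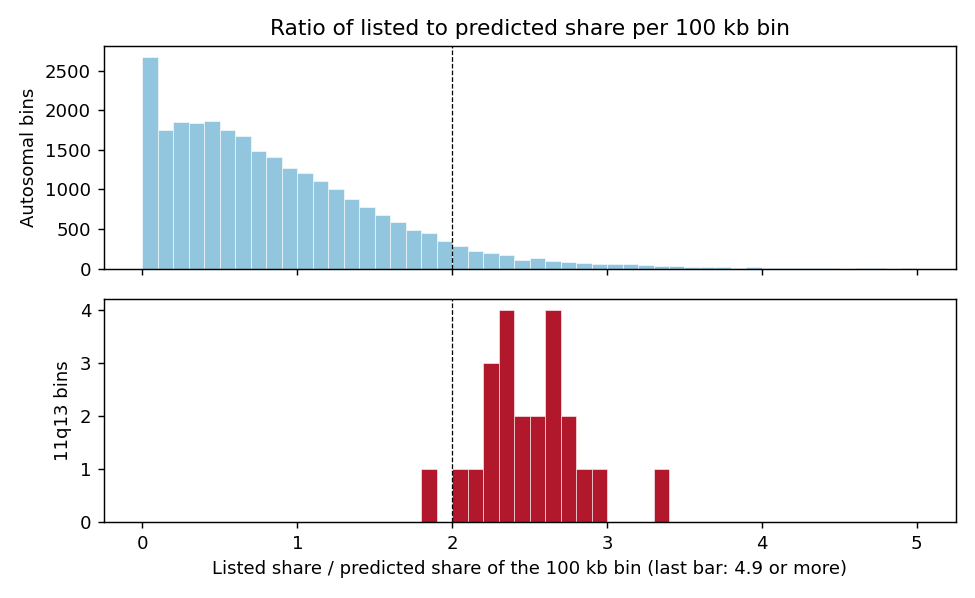
Number of 100 kb bins by the ratio of listed to predicted share, for all 26956 autosomal bins (upper panel) and for the 23 bins of the 11q13 region (lower panel), with a dashed line at 2. The bins of the region lie between 1.90 and 3.37, whereas the autosomal bins have their median at 0.705.

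Bins with every window listed numbered 15 of 23 in the region. Over the autosomes 18 of 26956 bins were full, or 0.0668%, and 16 of these lie on chromosome 11, with 1 each on chromosomes 14 and 22. The full bins of the region form 1 block, from 69300001 to 70800000. The 8 bins before it had between 85.5% and 99.5% of their windows listed.

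Windows of every CpG class were listed in the region. Of the 55 windows with no CpG 51 were listed, or 92.7% (82.7 to 97.1%), against 1.85% of such windows on the autosomes and 1.53% on the rest of chromosome 11. Of the 270 windows with 1 or 2 CpG sites 254 were listed, or 94.1%, against 5.69%. In the middle classes the difference narrowed, as in windows with 11 to 20 CpG sites, of which 99.3% were listed in the region and 47.4% on the autosomes. In the densest class, of 40 or more CpG sites, the shares were 86.4% (38 of 44 windows) and 29.4%. These autosomal shares are not matched for GC content. With GC content matched as well, the predicted shares of the region were higher. They were 3.50% with no CpG, 9.23% with 1 or 2 sites, 56.3% with 11 to 20 and 31.0% with 40 or more. On the autosomes the share rose up to 39 CpG sites and fell again beyond them, whereas from CCND1 to CTTN it was 100% in every class.

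**Figure D3:**
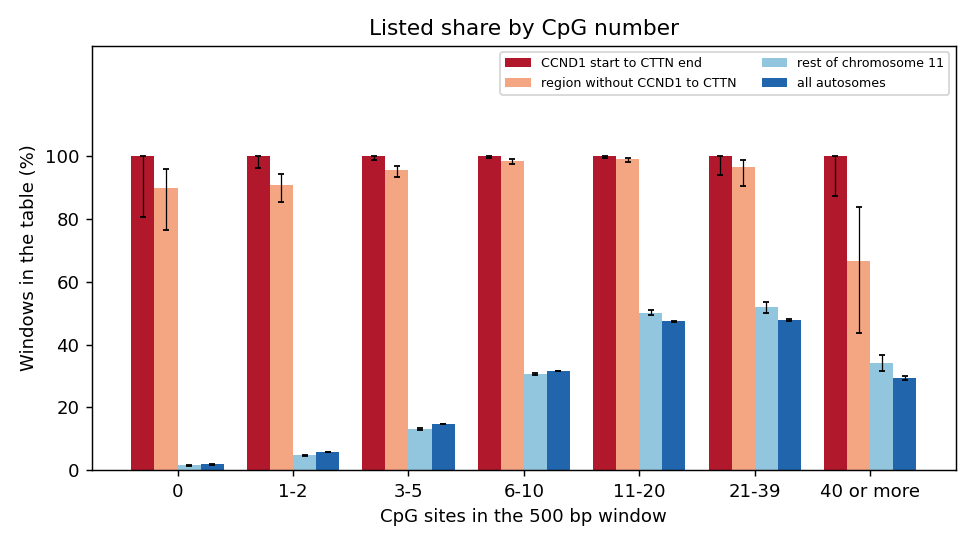
Share of windows in the table by the number of CpG sites in the window, for CCND1 to CTTN, the remainder of the region, the rest of chromosome 11 and all autosomes, with 95% Wilson intervals as error bars. From CCND1 to CTTN every class stands at 100%, while the autosomes go from 1.85% with no CpG to 47.9% with 21 to 39 CpG sites and back to 29.4% with 40 or more.

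Windows with at most 2 CpG sites had a low listed share over the autosomes (4.98%), which left room for neighbouring stretches to differ. Other CpG classes were not compared with the flanks. In the region 93.8% of 325 such windows were listed, where CpG number and GC content predicted 8.26%. From CCND1 to CTTN it was all 115, and from CTTN to the end of the region all 57. Centromeric of CCND1 in the region it was 133 of 153, or 86.9%. In the 2.3 Mb beyond the region on the centromeric side it was 44.1% of 442, and in the 2.3 Mb on the telomeric side 20.9% of 955. The predicted shares there were 7.37% and 7.18%. The shares of both flanks were thus lower than that of the region, and a dependence on distance was not tested.

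The same order held for all windows. The centromeric flank of 2.3 Mb had 81.6% of its windows listed at a ratio of 2.304, and the telomeric flank 45.6% at a ratio of 1.62. Towards the telomere the share dropped within 4 bins, from 96.5% in the bin that begins at 71000001 to 64%, 44.5% and 24% in the bins that follow. In that slope lie genes of sterol and cofactor metabolism. DHCR7, the last enzyme of cholesterol synthesis, had 34 of 50 windows listed, and NADSYN1, an NAD synthetase, 89 of 142. Their predicted shares were 38.3% and 38.9%. Towards the centromere the share varied between 66.5% and 99% in the bins from 67700001 to 68500000, and the bin from 67600001 to 67700000 stood apart with 25%, a ratio of 1.05. A drop like that on the telomeric side came farther out, from 94.5% in the bin that begins at 65100001 to 67.5%, 39.5% and 33.5% in the bins before it.

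The genes were described by windows with their midpoint in the gene body, by the 6 windows of the 3000 bp upstream, and by the window that holds the start of the canonical transcript. The 9 genes from CCND1 to CTTN had all 617 body windows, all 54 upstream windows and all 9 start windows listed. Windows classed as promoter in the region had a predicted share of 41.5%, and no autosomal share of upstream windows is given here. CCND1 (69455924 to 69469242) had 26 of 26 body windows listed, ANO1 222 of 222, FADD 8 of 8 and CTTN 76 of 76. FGF19, FGF4 and FGF3 had 12, 8 and 19 body windows, and LTO1, which takes part in ribosome assembly, 19. The predicted share differed among these genes more than the listed share, from 27.9% in PPFIA1 (227 of 227 windows) to 50.5% in CCND1. The ratio was therefore highest in PPFIA1, at 3.58, and lowest in CCND1, at 1.98.

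**Figure D4:**
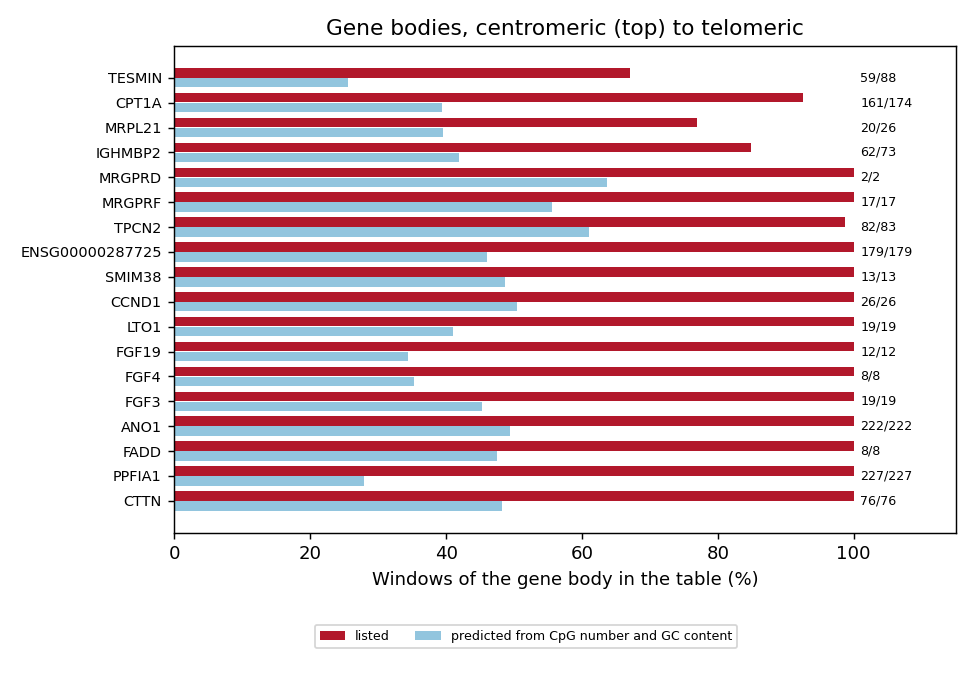
Share of body windows in the table (red) and predicted share (blue) for the 18 protein-coding genes with a canonical start in the region, in order along the chromosome, with the number of listed over all body windows at the right. Every gene from CCND1 down to CTTN stands at 100%, and the lowest share is that of TESMIN, 67%, part of which lies outside the region.

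The 9 genes centromeric of CCND1 had 595 of 655 body windows and 49 of 54 upstream windows listed, where windows of overlapping genes count for each. TESMIN, a gene of the germ line, had 59 of 88 body windows listed. Its body extends from 68474908, so that part of it lies before the region. Those windows are included in its count and in the 595 of 655. CPT1A, which brings long-chain fatty acids into mitochondria, had 161 of 174. MRPL21, a protein of the mitochondrial ribosome, had 20 of 26, and IGHMBP2, a helicase, 62 of 73. The receptor genes MRGPRD and MRGPRF had 2 of 2 and 17 of 17, and the lysosomal channel gene TPCN2 82 of 83. The shares under 95% thus belonged to the 4 genes farthest from CCND1. Their predicted shares were 25.5% in TESMIN, 39.4% in CPT1A, 39.6% in MRPL21 and 41.9% in IGHMBP2. The ratios of these 4 genes were 2.63, 2.35, 1.94 and 2.02. That of CCND1 (1.98) could not have been higher, since all its windows were listed. The ratios therefore do not rank the genes by how fully they were listed. ENSG00000287725 (179 of 179) and SMIM38 (13 of 13), both nearer to CCND1, had every body window listed, where 46.1% and 48.7% were predicted.

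Start windows differed within the region. Of the 18977 start windows of autosomal protein-coding genes 27.4% were listed, and of the 8760 among them with 40 or more CpG sites 19.1%. In the region 14 of 18 starts had their window listed. All 9 from CCND1 to CTTN were, with 34 CpG sites at ANO1, 39 at CCND1, 46 at LTO1, 48 at FADD, 50 at FGF19, 54 at FGF4, 57 at FGF3, 62 at CTTN and 74 at PPFIA1. Only 4.16% of autosomal start windows have as many CpG sites as that of PPFIA1. The unlisted starts were those of TESMIN (42 CpG sites), CPT1A (71) and the divergent pair MRPL21 and IGHMBP2, which share a window with 47. The 5 listed starts on the centromeric side had between 12 and 28 CpG sites.

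**Figure D5:**
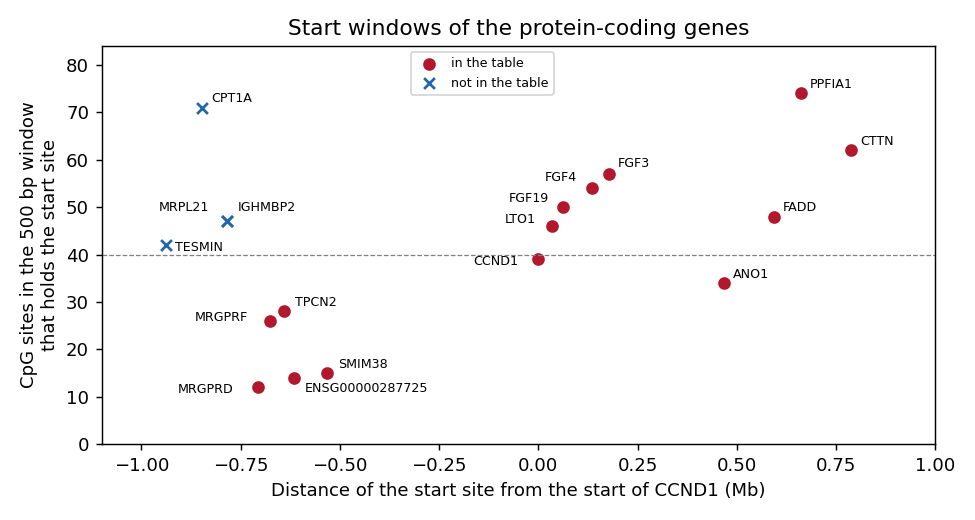
Number of CpG sites in the window that holds the canonical start of each of the 18 protein-coding genes, against the distance of the start from that of CCND1 in Mb, with a dashed line at 40 sites. Filled circles are listed windows and crosses unlisted ones, and the 4 crosses, 2 of which coincide at MRPL21 and IGHMBP2, all lie at the centromeric end.

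Of all windows with 40 or more CpG sites, 26 of 26 were listed from CCND1 to CTTN and 12 of 18 in the remainder of the region. Without the windows that hold a named start the counts were 19 of 19 and 12 of 15, and the intervals of these shares, from 83.2% and from 54.8% to 93.0%, overlap.

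Genes that start elsewhere or have no canonical transcript in the annotation showed the same range. SHANK2, which starts telomeric of the region, had all 972 of its windows in the region listed and 1298 of 1299 over its whole length. MYEOV, first described as overexpressed in myeloma, had 138 of 141. Composition predicted 41.7% over the whole length of SHANK2 and 33.2% in MYEOV. By annotation, 120 of 122 windows in exons, 103 of 107 in promoters, 1967 of 2001 in introns and 2128 of 2168 elsewhere were listed. The predicted shares were 42.9%, 41.5%, 42.2% and 37.5%. The listed share of these 4 classes lay between 96.3% and 98.4%, and with nearly every window listed it had little room to differ.

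Of the microRNA genes in the region, MIR3164, MIR548K and MIR3664, all had their window listed. MIR548K lies in PPFIA1, in a window of 3 CpG sites and 36.0% GC at chr11:70130001-70130500, with a predicted share of 9.29%. Its mature sequence in RefSeq is given with the seed, bases 2 to 8, in capitals.
hsa-miR-548k: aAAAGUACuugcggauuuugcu
The windows of MIR3164 and MIR3664 had 18 and 14 CpG sites and predicted shares of 50.1% and 39.3%.

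The 80 unlisted windows formed 52 runs, 35 of them of 1 window. In the first 257 kb of the region, to 68757000, 69 of 514 windows were not listed, which left 86.6%. In the 517 kb that follow, to 69274000, 11 of 933 were not listed, which left 98.8%. The segments end where the longest unlisted run and the last unlisted window end. Their ends were thus taken from the listing itself, and the contrast between them is partly set by that choice. The longest run, of 7 windows, ends the first segment at 68753501 to 68757000 and contains the unlisted window shown above. The unlisted windows of the segments differed in their medians, but their ranges of predicted share overlapped. Those of the first had a median of 5 CpG sites and a median predicted share of 19.9% (1.31 to 64.5%), with 18 of 69 under 10%. Those of the second had a median of 1 CpG site and 4.27% (0.126 to 67.6%), with 10 of 11 under 10%. The exception, at 68836001 to 68836500, had 23 CpG sites, and 32.8% of its 50-base sequences occur once on the assembled chromosomes.

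Repeated sequence can keep a read from being placed, so each window was scored by the share of its 50-base sequences that occur once on the assembled chromosomes by exact match. The median was 100% for listed and for unlisted windows of the region. Under 90% unique were 622 of 4318 listed and 22 of 80 unlisted windows, so that such windows were more frequent among the unlisted. From CCND1 to CTTN 269 of 1552 windows were under 90%, the lowest at 6.87%, and all were listed. Over windows of at least 90% unique sequence 98.5% were listed and the ratio to the prediction was 2.46. Unique sequence was scored only in the region and its flanks. The prediction therefore still came from all autosomal windows, repeated sequence included, and the ratio is not matched for repeats. Windows under 90% were more frequent in the flanks. They made up 1199 of 3755 listed and 416 of 845 unlisted windows on the centromeric side, and 450 of 2099 and 866 of 2501 on the telomeric side. Among windows of at least 90% unique sequence, 2556 were listed and 429 not on the centromeric side, and 1649 and 1635 on the telomeric side. The methods state that only reads with a unique placement were kept, so that windows of repeated sequence had fewer positions from which a read could count.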

How the data were processed

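Genomic DNA of FaDu cells was enriched and sequenced by the authors, 1 library for each of 4 conditions. Per the labels, reads were mapped to hg19 with Bowtie 0.12.7, and per the methods only uniquely placed, monoclonal reads were kept. The deposited table, written by the authors with MEDIPS, gives the chromosome, start and stop of 500 bp windows and 4 columns of values, which were not used because their names match no sample. A minimum of 20, probably of reads, is part of the deposited table's name, but what was counted and over how many libraries is not stated. An unlisted window may therefore still have had reads, and the depth of each window was not examined here. The region, its genes and the comparisons were chosen with earlier results of these data known.

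Windows of 500 bp were laid on the 22 autosomes of GRCh37, which has the coordinates of hg19 there, and windows with an undetermined base were left out of all shares. Predicted shares came from all autosomal windows with the same CpG number (40 or more as 1 class) and GC content in steps of 25 bases. Bins needed at least 50 windows. Genes and starts were taken from GENCODE version 44 lifted to GRCh37, and named genes were all protein-coding genes with a canonical start in the region. Unique sequence was counted with 50-base words, in the region and its flanks only. Intervals are 95% Wilson intervals, and no hypothesis test was run, since the libraries have no replicates and windows are not replicates. The software was Matplotlib 3.10.9 for figures and, for all else, NumPy 2.4.6 with SciPy 1.17.1 and pandas 2.3.3 under Python 3.11.15. Alternatives for the prediction, bins, promoters and gene bodies were tried.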

Additional observations from a re-analysis of the deposited data

How the results depend on the processing

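The region stayed above its predicted share under each prediction tried. Its ratio was 2.46 by CpG number and GC content, 2.99 by CpG number alone and 5.58 against the plain autosomal share. It was 2.47 with the prediction made without chromosome 11 and 2.57 from CCND1 to CTTN only. Relative to the rest of chromosome 11 it was 2.67, and 3.11 with CpG number alone, 6.01 with no prediction and 2.60 without CCND1 to CTTN, where these last alternatives and that of unique sequence were chosen after seeing the data. Upstream windows listed were 103 of 108 over 3000 bp, 50 of 54 over 1500 bp and 169 of 180 over 5000 bp. The number of windows moved with the length, and the shares were 95.4%, 92.6% and 93.9%, highest at the 3000 bp used above. The bins, with 22 of 23 at 2 or more, gave 42 of 45 at 50 kb (7.93% of autosomal bins) and 10 of 11 at 200 kb (6.18%), and 23 of 23 at a limit of 1.5, which 16.4% of autosomal bins reached. The share of body windows was 95.1% over the named genes, with the part of TESMIN outside the region included, and 95.3% for windows wholly in the gene. The alternative by repeat masking was not run, because the genome used is not masked. No paired analysis was possible because the columns name no condition, and a condition has only 1 library. The incompletely stated rule for listing a window limits every share given here, as do the depth, left unused with the columns of values, and the unmeasured copy number. No replicate error exists for the shares.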
